A study of Mus musculus with 6 samples.

Results

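Expression of 9 genes of iron uptake, iron storage, iron export and heme metabolism was examined in hematopoietic stem cells (HSCs) that lacked the ribosomal protein Rpl22 and in HSCs that had it. The 9 genes were *Tfrc*, *Slc11a2*, *Fth1*, *Slc40a1*, *Slc25a37*, *Ireb2*, *Alas1*, *Fech* and *Hmox1*. They were found by their symbols among the 34573 genes of the count table, and all 9 had enough reads to be among the 14004 genes tested. The libraries were poly(A)+ RNA sequencing libraries from HSCs sorted by flow cytometry out of adult mouse bone marrow. The labels give the gate as lineage-negative CD48-CD150+, and the study defined its HSCs as c-Kit+ and Sca-1+ as well. There were 3 libraries from *Rpl22*-/- mice (labelled Rpl22 KO) and 3 from *Rpl22*+/+ mice (labelled Rpl22 WT). Young adult mice backcrossed to C57BL/6 were used. The deletion was constitutional, so the cells around the HSCs lacked the gene too. Nothing in the sources used here says that the libraries of a genotype came from separate animals, so the p-values measure the spread between these libraries, which may be technical.

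Cells take up iron as transferrin bound to the transferrin receptor, carry it out of the endosome through a divalent metal transporter, hold the surplus inside ferritin and export it through ferroportin. Mitochondria import part of the iron and use it for heme and iron-sulfur clusters, and heme oxygenase returns the iron of spent heme to the cytosol. Messenger RNAs (mRNAs) of several of these proteins carry a short hairpin, the iron-responsive element, to which the iron regulatory proteins bind when iron is scarce, blocking translation from a hairpin in the 5′ untranslated region (UTR) and protecting the mRNA from decay through hairpins in the 3′ UTR.

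Of the 9 genes, *Tfrc* and *Ireb2* were lower in *Rpl22*-/- HSCs and *Fth1* was higher. *Tfrc*, the transferrin receptor, fell by 31.5% (95% confidence interval −40.8% to −20.7%). *Ireb2*, which encodes iron regulatory protein 2, fell by 23.2% (−33.1% to −11.7%), and *Fth1*, the ferritin heavy chain, rose by 24.4% (9.57% to 41.3%). The other 6 genes did not pass the test. These 3 calls, 1 higher and 2 lower, were made at a Benjamini-Hochberg adjusted p below 0.05 in the quasi-likelihood test of edgeR, which called 5.57% of all genes tested (3.28% higher and 2.29% lower). The 3 called genes were also the ones with no overlap between the genotypes' libraries, a pattern that 26.9% of all genes tested showed. By sign alone 4 of the 9 stood higher and 5 lower without Rpl22. Their median log2 fold change was −0.05, beside −0.01 over all genes tested. The plot of levels by library shows the 9 genes side by side, and the plot of fold changes gives their intervals.

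**Figure D1:**
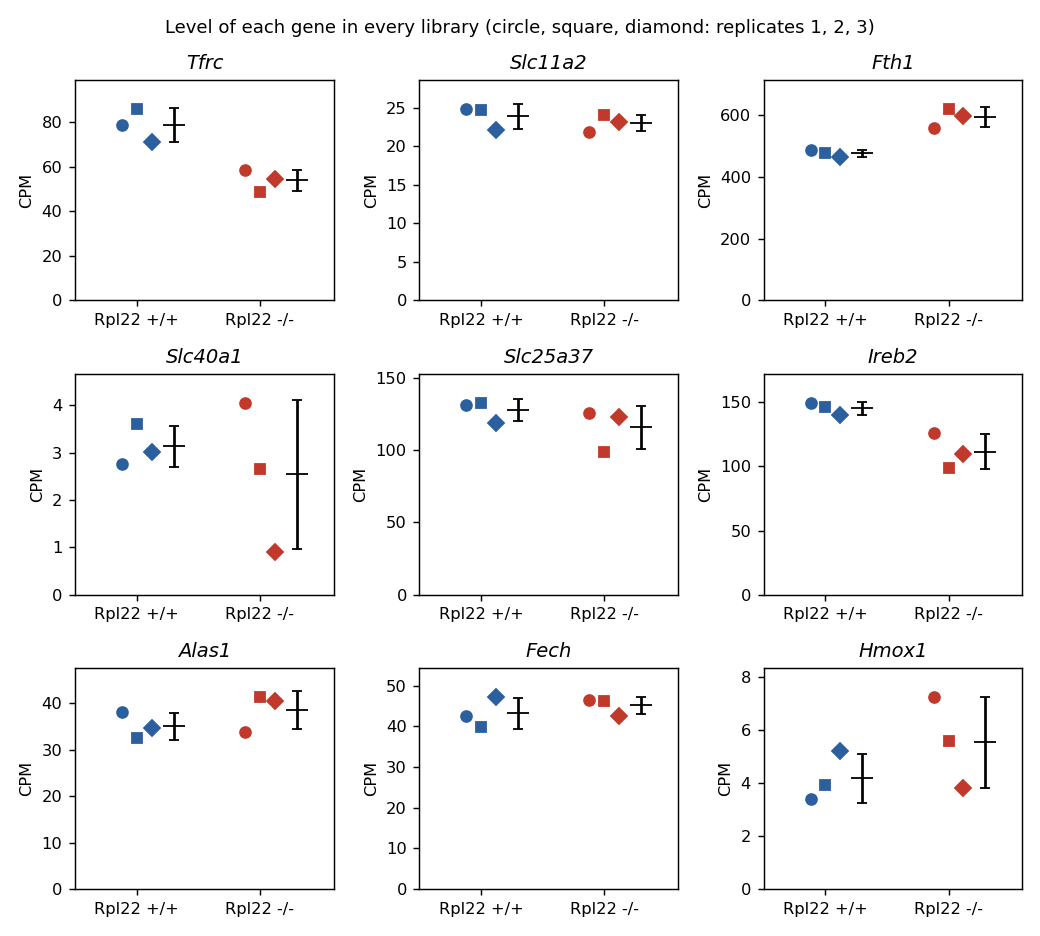
Level of each of the 9 genes as CPM (counts scaled to a common library size, linear axis from 0), for the 3 *Rpl22*+/+ libraries (blue) and the 3 *Rpl22*-/- libraries (red). Marker shapes are replicates 1, 2 and 3, and the black bars are the mean ± SD (n = 3). *Tfrc* and *Ireb2* libraries of *Rpl22*-/- HSCs lie below all those of *Rpl22*+/+ HSCs, *Fth1* libraries lie above, and the other 6 genes overlap.

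**Figure D2:**
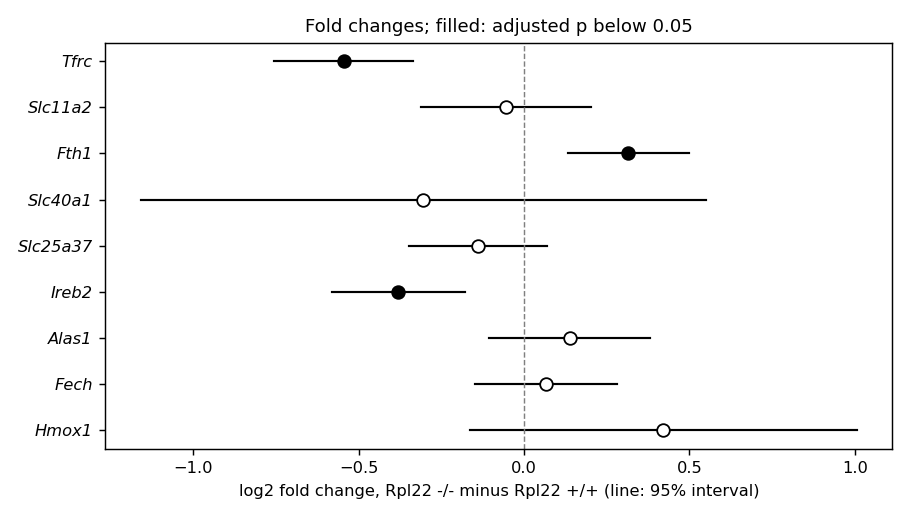
Log2 fold change of each gene, *Rpl22*-/- minus *Rpl22*+/+, with its 95% confidence interval from edgeR's quasi-likelihood fit of 3 against 3 libraries. Filled circles have an adjusted p below 0.05. The interval of *Slc40a1*, from −1.16 to 0.55, is the widest of the 9.

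The hairpins are shown here because 3 of the 9 genes, *Tfrc*, *Fth1* and *Slc40a1*, carry the letters of one. Of these, *Slc40a1* did not pass the test, and *Ireb2*, which did, held no match. Whether the hairpins had a part in the mRNA levels was not tested. A transcript was searched in its sense strand alone for CNNNNNCAGTGN followed by 5 bases that pair with the 5 N before the loop, with G-U pairs allowed. Each match is printed as DNA letters, 5′ to 3′, with the loop letters CAGTG in capitals, at its position in GRCm38 (mm10) from the GENCODE M21 annotation. The 3′ UTR of *Tfrc* held 4 matches.

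Tfrc, chr16:32631219-32631247, forward strand: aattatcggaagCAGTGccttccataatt
Tfrc, chr16:32631598-32631626, forward strand: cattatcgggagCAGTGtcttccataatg
Tfrc, chr16:32631663-32631691, forward strand: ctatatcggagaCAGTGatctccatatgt
Tfrc, chr16:32631710-32631738, forward strand: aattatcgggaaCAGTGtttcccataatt

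The 5′ UTRs of *Fth1* and of *Slc40a1*, the gene of ferroportin, held 1 each. That of *Ftl1*, the ferritin light chain and partner of *Fth1* in the ferritin shell, is printed for comparison.

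Fth1, chr19:9982732-9982760, forward strand: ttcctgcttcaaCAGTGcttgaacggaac
Slc40a1, chr1:45925465-45925493, reverse strand: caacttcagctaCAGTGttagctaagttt
Ftl1, chr7:45459779-45459807, reverse strand: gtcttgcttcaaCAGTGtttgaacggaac

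The *Fth1* and *Ftl1* stretches differed at 3 of 29 letters, whereas *Fth1* differed from the 4 *Tfrc* stretches at 18 to 20 letters and the *Tfrc* stretches differed among themselves at 4 to 11. Across 21901 coding genes, 0.142% had a match in the 5′ UTR, 0.639% in the coding sequence and 0.589% in the 3′ UTR. *Tfrc* was the 1 gene with more than 1 match in the 3′ UTR of a transcript. In the other 6 genes these letters were not found, which says no more than that.

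Reads on genes numbered 9321123 (*Rpl22*+/+ replicate 3) to 13385850 per library. *Rpl22* itself had 449 to 546 reads where the label said KO and 5031 to 7001 where it said WT. The genes of the sorted population were present in every library, with *Kit* at 886 to 990 CPM, *Slamf1* (CD150) at 40.6 to 63.5 CPM and *Cd48* at 4.89 to 7.30 CPM. Some markers of other cells rose without Rpl22, where 3.28% of all genes tested were called higher. Of the megakaryocyte markers tested, 6 of 9 rose in *Rpl22*-/- HSCs, and their summed level was 1530 to 1787 CPM against 1224 to 1435 CPM. Of the neutrophil markers, 2 of 9 rose. Their summed level was 100.3 to 225 CPM in *Rpl22*-/- HSCs, the highest in replicate 2, against 67.0 to 106 CPM. These ranges overlapped. The part of such cells in the results on iron genes was not tested. A bulk library also cannot tell fewer cells of a type from less RNA per cell.

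*Tfrc* brings transferrin-bound iron into the cell and is the principal iron entry of dividing hematopoietic cells. The gene lies on the forward strand of chromosome 16 from 32608920 to 32632794. Its level was 58.5, 48.9 and 54.4 CPM in *Rpl22*-/- replicates 1, 2 and 3, and 78.7, 86.3 and 71.1 CPM in *Rpl22*+/+ replicates 1, 2 and 3, from 588 to 1075 reads per library. The highest *Rpl22*-/- library was thus below the lowest *Rpl22*+/+ library. The means were 54.0 ± 4.81 CPM (SD, n = 3) and 78.7 ± 7.61 CPM (SD, n = 3). On the log2 scale *Tfrc* changed by −0.55 with a standard error of 0.0991 (adjusted p = 0.00753 in edgeR). By p-value it ranked 96 among the genes tested. It passed the threshold under 15 of 16 other ways of processing, missing it without *Rpl22*-/- replicate 3, where the fold change was still −0.55 but the adjusted p in edgeR was 0.0510. After each library's trends on transcript length and GC content were removed, the log2 fold change was −0.36 (adjusted p = 0.0487 in edgeR).

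*Tfr2*, which encodes a second transferrin receptor best known as an iron sensor in liver and erythroid cells, did not pass. Its log2 fold change was −0.01 (adjusted p = 0.967 in edgeR), with mean levels of 181 CPM without Rpl22 and 182 CPM with it. The ratio of *Tfr2* to *Tfrc* reads was 3.38, 3.22 and 3.45 without Rpl22 and 2.29, 2.03 and 2.71 with it. The genotypes did not overlap, which follows from the fall of *Tfrc* beside a near-equal level of *Tfr2*. *Tfr2* was named after its value was seen.

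*Slc11a2* encodes the divalent metal transporter that passes endosomal iron into the cytosol, the step after *Tfrc*. On chromosome 15 it spans 100387898 to 100425072 of the reverse strand. Its level was 21.9, 24.1 and 23.1 CPM in the *Rpl22*-/- libraries and 24.9, 24.6 and 22.1 CPM in the *Rpl22*+/+ libraries. The groups overlapped, and the log2 fold change was −0.05 with a 95% confidence interval from −0.31 to 0.20 (adjusted p = 0.833 in edgeR). The interval thus leaves room for a fall of 19.4% or a rise of 15.1%. An antisense-strand gene, *Gm5475*, shares 6.33% of its exon bases. *Gm5475* had 22, 31 and 40 reads in *Rpl22*-/- libraries and 9, 13 and 2 in *Rpl22*+/+ libraries. Its part in the *Slc11a2* reads was not tested.

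*Fth1* encodes the chain of ferritin that oxidizes iron for storage. It is on the forward strand of chromosome 19, from 9980598 to 9985098, and was the most abundant of the 9 genes, with 4456 to 7866 reads per library. Its level was 557, 620 and 598 CPM in the *Rpl22*-/- libraries and 486, 477 and 464 CPM in the *Rpl22*+/+ libraries. All *Rpl22*-/- libraries were above all *Rpl22*+/+ libraries. The means were 592 ± 32.2 CPM and 475 ± 11.2 CPM (SD, n = 3 each), a difference of 0.32 on the log2 scale with a standard error of 0.0863 (adjusted p = 0.0445 in edgeR). The sign held under all 16 alternatives, between 0.20 and 0.36, but the threshold was met under 7. In edgeR the adjusted p was 0.0564 with library size alone and 0.191, at a log2 fold change of 0.20, with the length and GC trends removed. It was 0.100 without *Rpl22*-/- replicate 2, 0.116 without *Rpl22*-/- replicate 3, and 0.148, 0.151 and 0.153 without *Rpl22*+/+ replicates 1, 2 and 3.

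The light chain moved the same way by value but did not pass in edgeR with all libraries. *Ftl1* averaged 575 CPM without Rpl22 and 488 CPM with it, and its log2 fold change of 0.24 had a standard error of 0.0855 (adjusted p = 0.110 in edgeR). It passed under 2 of 16 alternatives, DESeq2 (adjusted p = 0.0359) and edgeR without *Rpl22*-/- replicate 1 (adjusted p = 0.0447). With the length and GC trends removed its log2 fold change was 0.10 (adjusted p = 0.541 in edgeR). Several annotated copies of *Ftl1* are near-identical to it, among them *Ftl1-ps1* with 99.6% identity over 94.0% of the transcript. Reads without a unique alignment, 7.49% to 8.23% of each library's counts, were left out. Reads of *Ftl1* could be among them, so its level is uncertain. The ratio of *Fth1* to *Ftl1* reads was 1.02, 1.02 and 1.04 in *Rpl22*-/- libraries and 0.990, 0.976 and 0.959 in *Rpl22*+/+ libraries. Both chains together took 0.111% to 0.118% of gene counts in *Rpl22*-/- libraries against 0.0972% to 0.0982%. RNA alone was measured here, not protein or iron. The ratio of *Fth1* to *Tfrc* reads was 9.51, 12.7 and 11.0 in *Rpl22*-/- libraries and 6.17, 5.52 and 6.52 in *Rpl22*+/+ libraries. Every *Rpl22*-/- value was above every *Rpl22*+/+ value, which follows from the opposite moves of the genes.

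*Ireb2* encodes iron regulatory protein 2, which binds the hairpins printed above and is broken down when iron is plentiful. It is on the forward strand of chromosome 9, from 54863789 to 54912530. Its level was 126, 98.7 and 110 CPM in the *Rpl22*-/- libraries and 150, 146 and 140 CPM in the *Rpl22*+/+ libraries, without overlap. The means were 112 ± 14.0 CPM and 145 ± 4.98 CPM (SD, n = 3 each), or −0.38 on the log2 scale with a standard error of 0.0945 (adjusted p = 0.0305 in edgeR). It was lower under all 16 alternatives, from −0.47 to −0.17, and passed under 9. With the length and GC trends removed it was −0.17 (adjusted p = 0.292 in edgeR). The call was also lost on leaving out any library other than *Rpl22*-/- replicate 1, with adjusted p from 0.0714 to 0.131 in edgeR.

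*Aco1*, the gene of iron regulatory protein 1, did not pass, at 43.2 CPM without Rpl22 and 46.1 CPM with it (log2 fold change −0.10, adjusted p = 0.650 in edgeR). The ratio of *Ireb2* to *Aco1* reads was 2.93, 2.32 and 2.50 in *Rpl22*-/- libraries and 3.18, 2.81 and 3.56 in *Rpl22*+/+ libraries. These ranges overlapped.

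**Figure D3:**
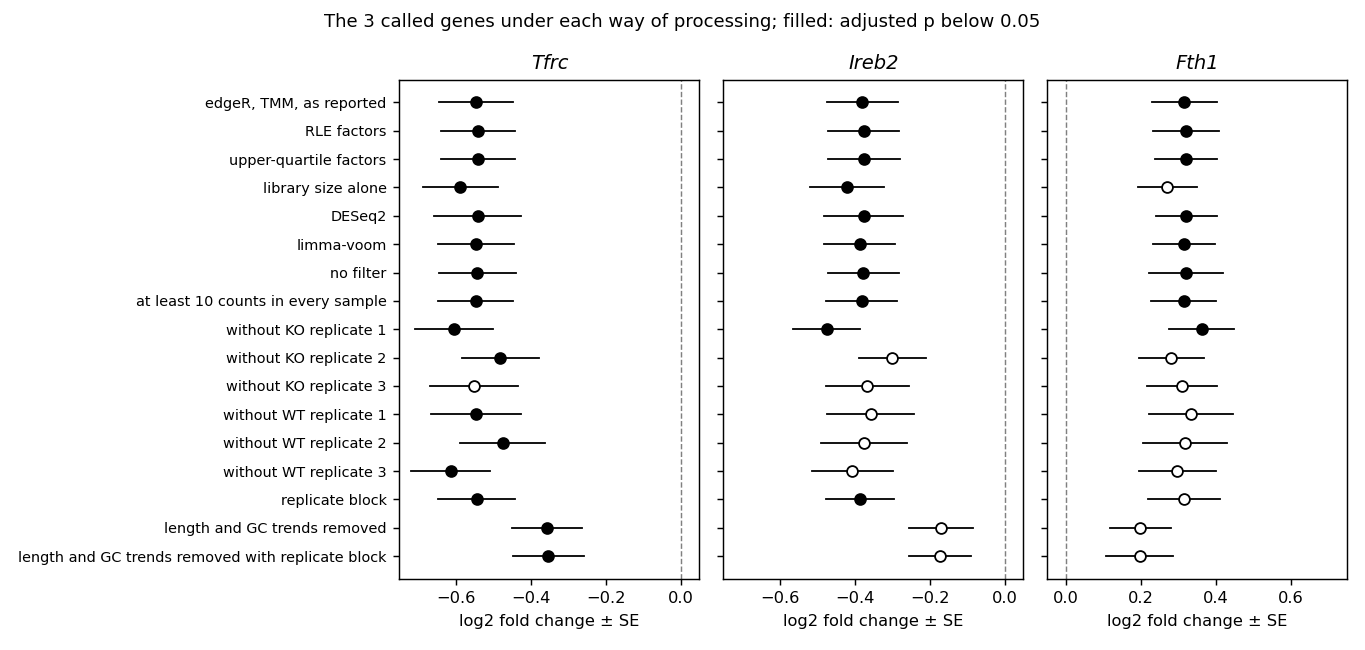
Log2 fold change ± SE of *Tfrc*, *Ireb2* and *Fth1*, *Rpl22*-/- minus *Rpl22*+/+, as reported (top) and under 16 alternatives, with filled circles for an adjusted p below 0.05. Every point of *Tfrc* and *Ireb2* is below 0 and every point of *Fth1* above it, and filled circles number 15 of 16 alternatives for *Tfrc*, 9 for *Ireb2* and 7 for *Fth1*.

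*Slc40a1* encodes ferroportin, the iron exporter of the cell membrane. It was the least expressed of the 9 genes per length, with 52, 32 and 12 reads in the libraries without Rpl22 and 36, 45 and 29 in those with it. In CPM these were 4.05, 2.66 and 0.912 against 2.77, 3.61 and 3.02, so that the *Rpl22*-/- libraries held both the highest and the lowest value. The log2 fold change was −0.30 with a 95% confidence interval from −1.16 to 0.55 (adjusted p = 0.709 in edgeR), and without *Rpl22*-/- replicate 3 its sign turned, to 0.10. Its locus on chromosome 1 spans 45908068 to 45926523 of the reverse strand.

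*Slc25a37* encodes mitoferrin 1, which carries iron across the inner mitochondrial membrane. On chromosome 14 the gene covers 69241848 to 69285112, reverse strand. The level was 126, 98.7 and 123 CPM in *Rpl22*-/- libraries and 131, 133 and 119 CPM in *Rpl22*+/+ libraries. *Rpl22*-/- replicate 2 was the lowest, and the other *Rpl22*-/- libraries lay within the *Rpl22*+/+ range. The log2 fold change was −0.14 (95% confidence interval −0.35 to 0.07, adjusted p = 0.435 in edgeR).

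*Alas1* encodes the housekeeping form of the first and rate-limiting enzyme of heme synthesis, and *Fech* the last enzyme, ferrochelatase, which inserts iron into the porphyrin ring. *Alas1* (chromosome 9, 106233455 to 106248654, reverse strand) was at 33.9, 41.4 and 40.5 CPM in *Rpl22*-/- libraries and 38.1, 32.4 and 34.6 CPM in *Rpl22*+/+ libraries. The groups overlapped, and the log2 fold change was 0.14 (95% confidence interval −0.11 to 0.38, adjusted p = 0.519 in edgeR). *Fech* was at 46.5, 46.4 and 42.6 CPM against 42.5, 39.8 and 47.2 CPM, also overlapping. Its log2 fold change was 0.07 (95% confidence interval −0.15 to 0.28, adjusted p = 0.752 in edgeR). Neither end of the heme pathway differed beyond the spread between libraries. *Alas2*, the erythroid form of the first enzyme, had too few reads to be tested, with 5, 9 and 8 in *Rpl22*-/- libraries and 18, 6 and 10 in *Rpl22*+/+ libraries.

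*Hmox1* encodes the inducible heme oxygenase, which opens the heme ring and frees its iron. Its locus is on the forward strand of chromosome 8, from 75093621 to 75100589. The counts were 93, 67 and 50 in *Rpl22*-/- libraries and 44, 49 and 50 in *Rpl22*+/+ libraries, or 7.25, 5.58 and 3.80 CPM against 3.38, 3.93 and 5.20 CPM. *Rpl22*-/- replicates 1 and 2 were above every *Rpl22*+/+ library, whereas *Rpl22*-/- replicate 3 lay within their range. The log2 fold change, 0.42, was the largest positive value of the 9 but had a standard error of 0.275 and a 95% confidence interval from −0.16 to 1.01 (adjusted p = 0.394 in edgeR). Leaving out single libraries moved it between 0.18, without *Rpl22*-/- replicate 1, and 0.64, without *Rpl22*-/- replicate 3.

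Macrophages of the marrow express *Hmox1* and *Slc40a1* strongly, though cells with the myeloid surface markers CD11b and Gr-1 were depleted before the sort. The macrophage and monocyte markers summed to 248 to 315 CPM in *Rpl22*-/- libraries and 246 to 276 CPM in *Rpl22*+/+ libraries. Most of each sum was *Lyz2*, at 178 to 231 CPM per library. Of the 10 tested, 1, *Cd163*, rose. *C1qa* had 25, 8 and 9 reads in *Rpl22*-/- libraries and 6, 3 and 13 in *Rpl22*+/+ libraries, and *Vcam1* 44, 25 and 16 against 14, 18 and 12. By value *Mertk*, *Spic* and *Axl* were lower without Rpl22 (log2 fold change −1.16, −0.26 and −0.16), and none of them passed. The median over the 10 tested was 0.10. *Rpl22*-/- replicate 1, the library with the most *Hmox1* and *Slc40a1* reads, was highest for 6 of the 17 markers in the table, *C1qa* and *Vcam1* among them, and *Rpl22*-/- replicate 2 for 5, *Rpl22*-/- replicate 3 for 2 and *Rpl22*+/+ replicates 2 and 3 for 1 and 3. *Spic*, a factor of iron-recycling macrophages, was highest in *Rpl22*+/+ replicate 2. The part of such cells in the levels of the 2 genes was not tested. Red cell precursors, which take up much iron, are marked by globin transcripts. *Hba-a1*, *Hba-a2* and *Hbb-b1* had 0 to 25 reads per library. *Hbb-b2* had 88, 87 and 74 reads without Rpl22 and 21, 60 and 50 with it, a log2 fold change of 0.78 that did not pass (adjusted p = 0.164 in edgeR). Of 11 erythroid markers tested, 2 fell, *Ermap* and *Car1*, and none rose in edgeR. The summed level of the erythroid list, mostly *Car2*, was 1060 to 1104 CPM in *Rpl22*-/- libraries and 921 to 972 CPM in *Rpl22*+/+ libraries.

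Levels were compared between the genes as CPM per kilobase of the reference transcript, whose lengths ran from 929 bases for *Fth1* to 6571 bases for *Fech*. In *Rpl22*+/+ HSCs the order was *Fth1* (512 CPM per kilobase), *Slc25a37* (30.6), *Ireb2* (25.2), *Tfrc* (16.1), *Alas1* (11.3), *Slc11a2* (7.89), *Fech* (6.57), *Hmox1* (2.66) and *Slc40a1* (0.929). In *Rpl22*-/- HSCs *Alas1*, at 12.5 CPM per kilobase, stood above *Tfrc*, at 11.0, though the libraries of the 2 genes overlapped there. The rest of the order was as in *Rpl22*+/+ HSCs. No other neighbours in either order had overlapping libraries. The closest were *Slc11a2*, at 7.29 to 8.23 CPM per kilobase in *Rpl22*+/+ libraries, and *Fech*, at 6.06 to 7.19. Levels per length depend on which transcript is taken as the reference.

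**Figure D4:**
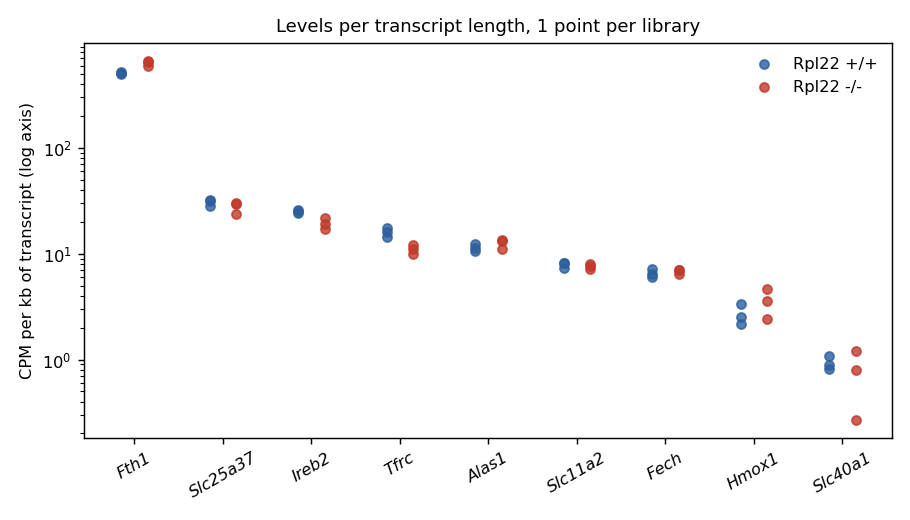
Level per length of the 9 genes in CPM per kilobase of reference transcript (log axis), in each of the 3 *Rpl22*+/+ and 3 *Rpl22*-/- libraries. *Fth1*, at 512 CPM per kilobase on average in *Rpl22*+/+ HSCs, lies far above the others, and *Slc40a1*, at 0.929, lies lowest.

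The other genes of iron and heme metabolism numbered 93 in 9 lists, of which 80 were tested. By sign 51 stood higher and 29 lower without Rpl22, where 48.7% of all genes tested stood higher, around a median of 0.06 (log2 fold change). Of the 80, 2 rose and 1 fell at an adjusted p below 0.05 in edgeR, which is 3.75% beside 5.57% of all genes, and DESeq2 called 8 (7.55% of all genes) and limma-voom 2 (5.3% of all genes). The genotypes' libraries did not overlap for 22 genes that stood higher and 9 that stood lower without Rpl22, patterns that 13.3% and 13.6% of all genes tested showed. The plot of the pathway lists gives every gene tested.

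**Figure D5:**
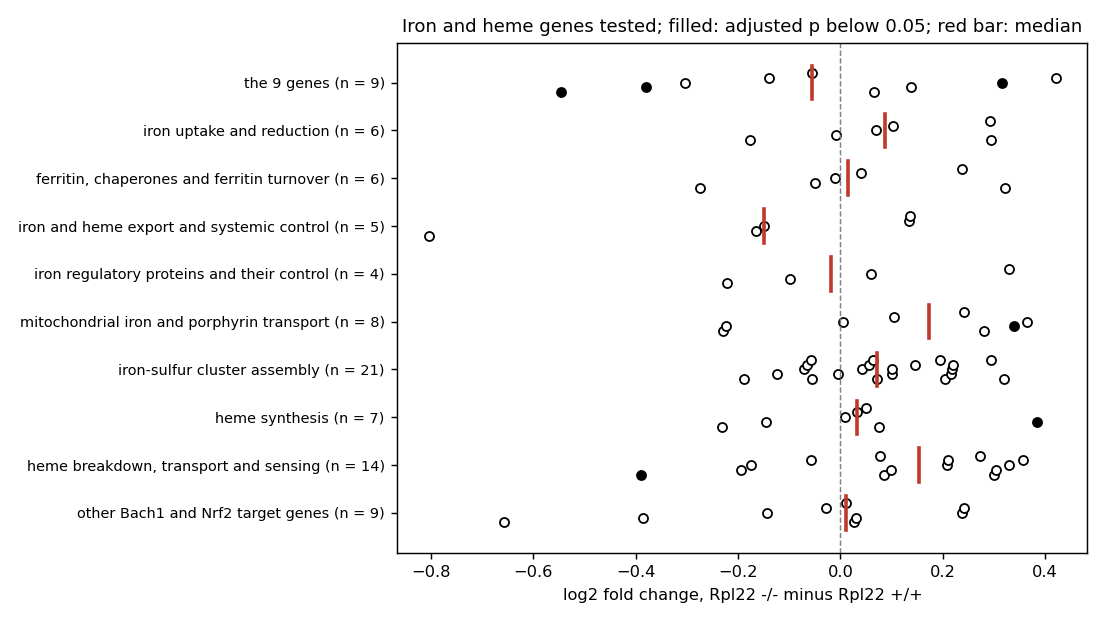
Log2 fold change, *Rpl22*-/- minus *Rpl22*+/+, of the 9 genes (top) and of the other iron and heme genes tested, by list. Each circle is a gene, filled where the adjusted p is below 0.05, the red bar is the list's median, and n is the number tested. Filled circles are 3 in the top line and 1 each in mitochondrial transport, heme synthesis, and heme breakdown and sensing.

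*Slc25a39*, the mitochondrial glutathione carrier, rose from 62.1 CPM to 78.7 CPM, by 0.34 on the log2 scale with a standard error of 0.0908 (adjusted p = 0.0404 in edgeR). *Nr1d2*, a heme-binding nuclear receptor of the circadian clock, fell from 56.9 CPM to 43.4 CPM, a log2 fold change of −0.39 with a standard error of 0.109 (adjusted p = 0.0477 in edgeR). *Slc25a39* passed under 8 of 16 alternatives and *Nr1d2* under 7. Both calls were lost with the length and GC trends removed and on leaving out any library other than *Rpl22*-/- replicate 1. *Slc25a39* also missed with library size alone (adjusted p = 0.0577 in edgeR), and *Nr1d2* with upper-quartile factors (0.0547) and in limma-voom (0.0568). The lists of these genes held 8 and 14 genes tested, of which 1 passed in each.

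No gene passed in edgeR in the lists of uptake and reduction (6 tested), ferritin chaperones and turnover (6), export and systemic control (5), regulatory proteins (4), iron-sulfur cluster assembly (21) and other targets of Bach1 and Nrf2 (9). At an unadjusted p below 0.05 they had 1, 3, 1, 2, 2 and 3 genes, where 22.3% of all genes tested had one, DESeq2 called 1, 2, 0, 1, 0 and 0, and limma-voom called none. Outside the list of regulatory proteins, the smallest p of each list belonged to *Snx3*, which recycles the transferrin receptor (log2 fold change 0.29, adjusted p = 0.0711 in edgeR), *Ncoa4*, the receptor that sends ferritin to the lysosome (−0.27, 0.0621), *Hfe*, a partner of the transferrin receptors (−0.80, 0.101), *Nfu1*, a cluster carrier (0.29, 0.0863), and *Me1* (−0.66, 0.123). The regulators of *Hmox1* did not pass. *Bach1*, its heme-sensing repressor, was at 92.0 CPM without Rpl22 and 105 CPM with it (log2 fold change −0.19, adjusted p = 0.312 in edgeR), and *Nfe2l2*, its activator Nrf2, at 124 CPM and 103 CPM (0.27, 0.0940).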

How the data were processed

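RNA was sequenced from sorted HSCs, 3 *Rpl22*-/- and 3 *Rpl22*+/+ libraries. The authors aligned reads to mm10 with TopHat2 2.1.1 and deposited HTSeq counts per gene, not normalized, in which the strand setting and the annotation are not given in the sources used here. The 5 HTSeq total lines, 58.6% to 60.9% of each library's counts, were left out. The remaining 9321123 to 13385850 counts per library set the precision of low genes. In edgeR 4.0.16 (R 4.3.3), genes were filtered at a minimum count of 10, scaled by TMM and tested by the quasi-likelihood test of genotype with Benjamini-Hochberg adjustment over all 14004 genes, and called at an adjusted p below 0.05. CPM are on the TMM scale. The study's own tool, DESeq2 1.42.0, was an alternative, as were limma-voom (limma 3.58.1), other scalings and filters, each library left out, a replicate block, and removal of length and GC trends (lowess, span 0.3). The edgeR test with TMM, DESeq2 and limma-voom were run on simulated counts first. The other scalings and filters, the left-out libraries, the block and the trend removal were not. Lengths and hairpin letters came from GENCODE M21, with 30973 symbols matched. Copies came from BLAST 2.17.0.

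The 9 genes and the lists were chosen with earlier results of these data known, and older symbols for 4 listed genes, *Flvcr1* and *Flvcr2* among them, were added after the table was seen. Named beside the 9 genes were those of each list passing the threshold, otherwise the gene of smallest p, and *Ftl1*, *Alas2*, *Aco1*, *Bach1* and *Nfe2l2*. Results for some genes within this rule are not reported here. The lymphoid markers, of which 1 of 9 could be tested, summed to 24.8 to 28.1 CPM in *Rpl22*-/- libraries and 21.4 to 23.1 CPM in *Rpl22*+/+ libraries, and of 13 HSC markers 1, *Fgd5*, fell. The gate is lineage-negative CD48-CD150+ per the labels, to which the study's definition of HSCs adds c-Kit+ and Sca-1+.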

Additional observations from a re-analysis of the deposited data

How the results depend on the processing

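The signs of 8 of the 9 genes held under all 16 alternatives, and that of *Slc40a1* turned without *Rpl22*-/- replicate 3, to 0.10, and was −0.82 without *Rpl22*-/- replicate 1. Of the 9 genes, 3 were called as reported, 1 with the length and GC trends removed, 1 with those trends and the replicate block together, and 0 to 3 on leaving out single libraries (3 without *Rpl22*-/- replicate 1, 0 in edgeR without *Rpl22*-/- replicate 3 where 4, and 18.5% of all genes, had an unadjusted p below 0.05, and 1 without any of the other 4). Of all genes, 780 were called as reported, 1422 without a filter, 439 with the length and GC trends removed, and 127 to 1720 on leaving out *Rpl22*-/- replicate 3 and *Rpl22*-/- replicate 1. Of the other iron and heme genes, 3 were called as reported, 8 by DESeq2, 7 without a filter, 5 with the replicate block, and 0 to 11 on leaving out single libraries, the 11 without *Rpl22*-/- replicate 1 and 0 without any other. It was also 0 with the length and GC trends removed, alone or with the block, where 16 and 17 of these 80 genes, and 19.4% and 19.6% of all genes, had an unadjusted p below 0.05 in edgeR. Higher genes were 58.8% of all calls as reported and 43.4% of 850 with library size alone. Samples sharing a replicate number did not deviate together (correlations −0.10, 0.05 and 0.04), so the numbers were not taken as pairs. With the replicate block 904 genes and 2 of the 9 were called, *Fth1* missing the threshold (adjusted p = 0.0593 in edgeR). With 3 libraries a genotype, differences as small as those of *Fth1* and *Ireb2* sit at the threshold. *Slc40a1*, at 12 to 52 reads, and *Hmox1*, at 44 to 93, combined low counts with a wide spread among *Rpl22*-/- libraries, and their parts in the wide intervals were not tested apart. The cause of the changes under these alternatives was not tested.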
